A study of Mus musculus with 17 samples.

Results

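MYC binding was compared between 4 h and 2 h of interleukin 4 (IL4) in mouse bone marrow-derived macrophages, from the lists of MYC peaks deposited for each time. A peak is a stretch of the genome where DNA recovered with a MYC antibody exceeded the control. Peaks on chromosomes 1 to 19, X and Y that did not overlap a peak of the input library were kept, which left 9645 peaks of 4 h and 13211 peaks of 2 h. A peak that overlapped a peak of the other time by at least 1 bp was called shared, and the others were 4 h-only or 2 h-only. There were 1178 4 h-only and 4878 2 h-only peaks, while 8467 peaks of the 4 h list and 8333 of the 2 h list were shared.

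The series held 17 chromatin immunoprecipitation sequencing (ChIP-seq) libraries, 16 of them for 5 transcription factors under different cytokines and 1 input library of unprecipitated DNA. Cells came from C57BL/6 bone marrow, were grown with 30% L929-conditioned medium and were used on day 7 of differentiation. Both MYC libraries were from cells given 10 ng/ml IL4 without interferon gamma (IFNg), one time being 4 h and the other 2 h, and both are labelled wild type. Each time was a single library, so no difference below has a replicate check, no p-value is given, and the 95% intervals (exact binomial) cover counting error only.

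MYC is a basic helix-loop-helix protein that binds DNA as a dimer with MAX, by preference at the E-box CACGTG, and is best known for binding promoters of genes for ribosome assembly, translation, nucleotide synthesis and cell growth. IL4 signals through the transcription factor STAT6 and drives the alternative activation programme of macrophages. L929 cells supply the growth factor CSF1, on which these macrophages depend.

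Promoter sequences are printed as examples of each class, and these examples differ in strength as well as in class. The 4 h-only examples ranked 2100 to 2801 in the 4 h list and the 2 h-only examples 2147 to 2509 in the 2 h list. The shared examples ranked 5 to 11 in the 4 h list. The motif shares given after them are not split by strength. For each class the 3 highest peaks with the summit inside a RefSeq promoter window (GRCm38.p6; 250 bases before to 50 after the start, so that the start follows base 250) are printed 5′ to 3′. Capitals mark CACGTG and the related E-boxes CACATG and CACGCG on either strand. The 4 h-only promoters were Rgp1 (chr4:43578485-43578784, plus strand), Sec22a (chr16:35363869-35364168, minus strand) and Fundc2 (chrX:75382149-75382448, plus strand), with 22, 24 and 19 fragments at the 4 h summit.
Rgp1: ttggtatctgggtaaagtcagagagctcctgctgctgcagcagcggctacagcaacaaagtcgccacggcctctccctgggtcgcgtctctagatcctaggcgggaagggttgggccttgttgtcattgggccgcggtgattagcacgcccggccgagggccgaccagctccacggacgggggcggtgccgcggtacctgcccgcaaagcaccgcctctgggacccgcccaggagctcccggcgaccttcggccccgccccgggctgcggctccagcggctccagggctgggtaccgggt
Sec22a: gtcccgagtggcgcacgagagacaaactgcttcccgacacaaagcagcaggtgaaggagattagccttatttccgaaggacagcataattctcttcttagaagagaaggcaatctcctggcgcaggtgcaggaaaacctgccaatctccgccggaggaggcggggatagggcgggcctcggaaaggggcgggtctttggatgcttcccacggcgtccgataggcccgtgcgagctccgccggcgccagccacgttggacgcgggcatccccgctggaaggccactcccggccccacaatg
Fundc2: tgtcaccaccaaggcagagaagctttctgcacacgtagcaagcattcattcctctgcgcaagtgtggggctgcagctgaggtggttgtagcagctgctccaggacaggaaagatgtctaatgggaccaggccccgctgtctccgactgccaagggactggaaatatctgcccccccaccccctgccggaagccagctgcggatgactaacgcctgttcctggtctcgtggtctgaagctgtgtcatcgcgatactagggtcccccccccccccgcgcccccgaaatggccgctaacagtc
None of these held any of the 3 motifs. The 2 h-only promoters were Pisd (chr5:32785577-32785876, minus strand), Mipep (chr14:60784316-60784615, plus strand) and Dhx34 (chr7:16221983-16222282, minus strand), with 24, 21 and 22 fragments at the 2 h summit.
Pisd: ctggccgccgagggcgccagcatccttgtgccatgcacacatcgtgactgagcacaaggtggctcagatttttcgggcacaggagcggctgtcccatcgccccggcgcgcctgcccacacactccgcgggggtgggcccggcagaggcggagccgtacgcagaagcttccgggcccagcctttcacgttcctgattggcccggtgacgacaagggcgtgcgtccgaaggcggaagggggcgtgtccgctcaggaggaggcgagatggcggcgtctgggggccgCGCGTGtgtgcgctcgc
Mipep: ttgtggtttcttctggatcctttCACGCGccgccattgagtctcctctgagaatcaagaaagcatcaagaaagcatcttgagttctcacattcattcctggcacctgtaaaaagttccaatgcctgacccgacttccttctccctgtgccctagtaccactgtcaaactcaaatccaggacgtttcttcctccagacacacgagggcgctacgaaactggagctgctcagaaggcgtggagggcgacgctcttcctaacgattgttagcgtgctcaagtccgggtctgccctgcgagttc
Dhx34: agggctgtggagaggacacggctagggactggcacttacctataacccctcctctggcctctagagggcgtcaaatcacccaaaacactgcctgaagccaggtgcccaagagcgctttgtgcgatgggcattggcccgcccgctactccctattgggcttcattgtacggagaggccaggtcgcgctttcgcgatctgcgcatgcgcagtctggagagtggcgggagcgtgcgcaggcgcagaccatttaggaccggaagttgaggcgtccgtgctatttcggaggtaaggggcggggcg
None held CACGTG, while Pisd and Mipep each held 1 related E-box, 93.5 and 233.5 bp from the summit. The shared promoters were Psme3 (chr11:101315963-101316262), G6pc3 (chr11:102189449-102189748) and Wdr43 (chr17:71615965-71616264), all on the plus strand. Their summits carried 112, 104 and 104 fragments at 4 h and 104, 96 and 97 fragments at 2 h.
Psme3: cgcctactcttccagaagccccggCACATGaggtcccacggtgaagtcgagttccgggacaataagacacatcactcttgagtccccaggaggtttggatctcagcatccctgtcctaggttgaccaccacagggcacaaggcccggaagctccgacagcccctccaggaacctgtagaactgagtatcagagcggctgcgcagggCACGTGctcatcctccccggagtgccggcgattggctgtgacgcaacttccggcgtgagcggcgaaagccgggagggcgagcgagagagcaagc
G6pc3: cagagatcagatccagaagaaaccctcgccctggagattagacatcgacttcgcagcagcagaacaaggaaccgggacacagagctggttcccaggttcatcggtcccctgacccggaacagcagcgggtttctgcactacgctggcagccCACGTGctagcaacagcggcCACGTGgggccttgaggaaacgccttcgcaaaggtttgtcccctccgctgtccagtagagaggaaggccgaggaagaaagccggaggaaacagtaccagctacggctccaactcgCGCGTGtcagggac
Wdr43: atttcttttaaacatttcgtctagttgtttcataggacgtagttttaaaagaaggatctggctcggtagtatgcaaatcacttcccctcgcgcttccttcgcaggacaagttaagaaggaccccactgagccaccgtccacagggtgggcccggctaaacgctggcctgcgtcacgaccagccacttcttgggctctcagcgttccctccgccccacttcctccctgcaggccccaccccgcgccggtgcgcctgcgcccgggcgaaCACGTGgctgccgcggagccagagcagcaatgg
Psme3 (a proteasome activator) had CACGTG at bases 207 to 212, with the 4 h summit at base 193. G6pc3 (a glucose-6-phosphatase) had the motif at bases 152 to 157 and 172 to 177, with the summit at base 183. Wdr43 (a nucleolar protein of ribosome assembly) had it at bases 268 to 273, with the summit at base 253.

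Over all promoter windows that held a summit, CACGTG was present in 10.3% of 253 4 h-only windows (6.82 to 14.7), 9.80% of 1061 2 h-only windows (8.08 to 11.8) and 18.9% of 3042 shared windows (17.6 to 20.4), against 7.84% of all 21262 windows of that length. With CACATG and CACGCG counted too, the shares were 32.0%, 35.2% and 50.3%, against 28.8% of all windows. In these 2 counts both 1-time classes lay nearer to all promoters than to the shared class. The centre of the nearest CACGTG was a median of 53 bp from the summit in 24 4 h-only peaks, 51.5 bp in 98 2 h-only peaks and 29.5 bp in 507 shared peaks. The motif GTCACGTG, which contains the E-box, was found in 5.53%, 5.00% and 6.15% of the windows, against 2.84% of all. For this motif both 1-time classes lay nearer to the shared class. A match is a description of the letters and not a binding site.

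The overlap was uneven between the times. Of the 4 h peaks, 87.8% were shared (87.1 to 88.4), and of the 2 h peaks 63.1% (62.2 to 63.9), so most 4 h sites were also 2 h sites. The 8690 overlapping pairs shared a median of 209 bp, and their summits were a median of 41 bp apart (quartiles 18 and 83 bp). Near the limit of the overlap rule, 42 pairs overlapped by under 10 bp, and 115 4 h-only and 227 2 h-only peaks had a peak of the other list under 100 bp away. The median distance to the nearest summit of the other time was 9.39 kb for 4 h-only and 17.0 kb for 2 h-only peaks.

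Sequencing depth did not run with peak number. The deposited columns gave whole fragment counts at every summit of both lists and a depth of 0.876 at 4 h and 0.573 at 2 h relative to the input, a ratio of 1.53, while the ratio of peak numbers was 0.730. In the pairs the depth-scaled summit count of 4 h over 2 h had a median of 0.701 (5th to 95th percentile 0.448 to 1.09) and was lower at 4 h in 90.9% of pairs. A change in MYC binding, in the cells and in the yield of each precipitation cannot be told apart with 1 library per time. When only the 5000 highest peaks of each list were used, the shares became 75.9% of 4 h peaks and 74.6% of 2 h peaks.

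Sharing fell with peak strength in both lists. In 10 equal classes by −log10 p, the share in the 4 h list was 99.1% in the strongest class and 67.7% in the weakest. In the 2 h list it was 100% in the strongest class (1322 peaks) and 26.3% in the weakest. The highest −log10 p was 70.1 among 4 h-only peaks, at rank 143 of the 4 h list, and 31.2 among 2 h-only peaks, at rank 1399 of the 2 h list. There were 22 4 h-only and 53 2 h-only peaks with a −log10 p of 20 or more. Median widths were 141 bp for 4 h-only peaks and 151 bp for 2 h-only peaks, against 249 bp for shared peaks of the 4 h list and 304 bp for those of the 2 h list.

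**Figure D1:**
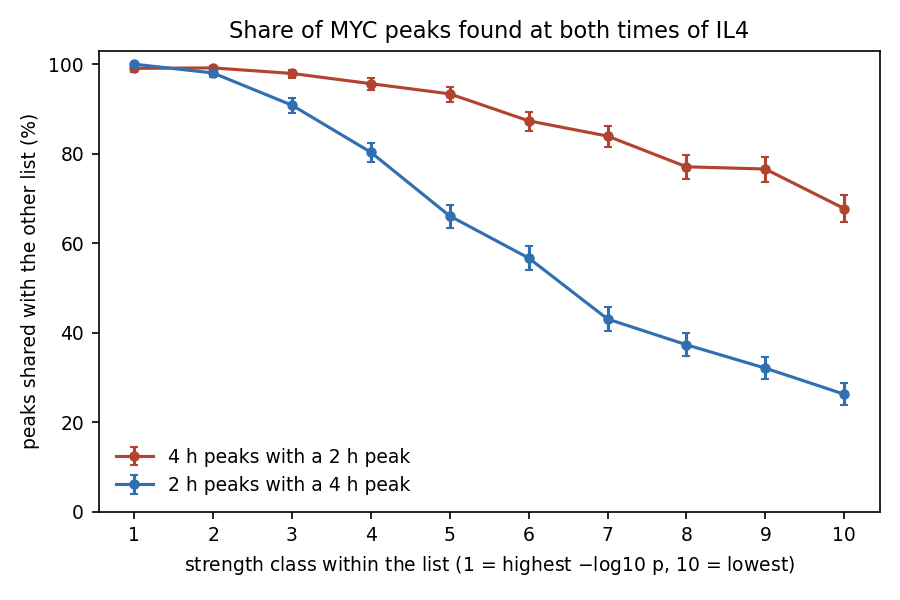
Share of MYC peaks with an overlapping peak at the other time (y axis, percent) by strength class within each list (x axis, class 1 highest −log10 p), with exact 95% binomial intervals as bars. Nearly all peaks of the strongest class were shared in both lists, and in the weakest class 67.7% of 4 h peaks and 26.3% of 2 h peaks were.

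The highest shared peak was inside Ncl (nucleolin, a nucleolar protein), at chr1:86358372-86359291, with 138 fragments at 4 h and 141 at 2 h, and it ranked highest in both lists. Ddx21 (a nucleolar RNA helicase) had 87 fragments at 4 h and 89 at 2 h. Rpl32 (a protein of the large ribosomal subunit) had 99 at 4 h and 109 at 2 h. Scaled for depth, 4 h was lower at all 3: the ratio of 4 h over 2 h was 0.640 at Ncl, 0.639 at Ddx21 and 0.594 at Rpl32. The others of the 10 strongest were named by Myo1g, Psme3, Pemt, Ppp1r15b, G6pc3, Wdr43 and Rps6ka1, with 102 to 130 fragments at 4 h and 92 to 131 at 2 h. Ppp1r15b, a subunit of the phosphatase that acts on the initiation factor eIF2, had the highest ratio of the 10, 0.832.

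Most of the strongest 4 h-only peaks lay inside genes and over 1 kb from a listed start. The highest was inside Grn (progranulin), at chr11:102433963-102434331 and 3.73 kb into a span of 6.30 kb, with 56 fragments, and the next were inside Ctsb (cathepsin B, a lysosomal protease), with 66 and 49 fragments at chr14:63142261-63143094 and chr14:63143536-63143909. Each of these 3 had no overlapping 2 h peak, although 56, 66 and 49 fragments scaled to the depth of 2 h come to 36.6, 43.2 and 32.0. The others of the 10 strongest were inside Selenop (the selenium carrier selenoprotein P, 45 fragments), Tmsb4x (thymosin beta 4, which binds actin, 34), Itm2b (a membrane protein, 40), Apoe (apolipoprotein E, 41), Psap (prosaposin, the precursor of lysosomal saposins, 32), Ctsd (cathepsin D, 35) and Fcgr3 (an Fc gamma receptor, 34). By the nearest gene start or, for genes without a listed start, the nearest span end, the Grn peak was assigned to Fam171a2, the Ctsb peaks to Fdft1 and the Ctsd peak to Ifitm10.

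Of the 25 strongest 4 h-only peaks, 24 were inside a gene span and 4 were within 1 kb of a start. Of the 21 inside genes of known strand, 18 (85.7%) were past 50% of the gene's length, at a median of 86.6% of the way. Of the 25 strongest 2 h-only peaks, 15 were inside a gene, 2 of these 15 were past 50%, and 8 were within 1 kb of a start. None of the 14 such peaks among the 25 strongest shared peaks was past 50%. The pattern weakened with rank: past 50% lay 62.1% of the 100 strongest and 27.5% of all 4 h-only peaks inside genes of known strand, and 16.1% and 20.5% of the 2 h-only peaks. The way along the gene was measured from the 5′ end of the span, and some genes have listed starts inside it: the Apoe peak was 0.832 kb from such a start, the highest Tmsb4x peak 1.89 kb and the highest Psap peak 17.5 kb. This grouping was made after the values were seen. Exons were not examined.

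**Figure D2:**
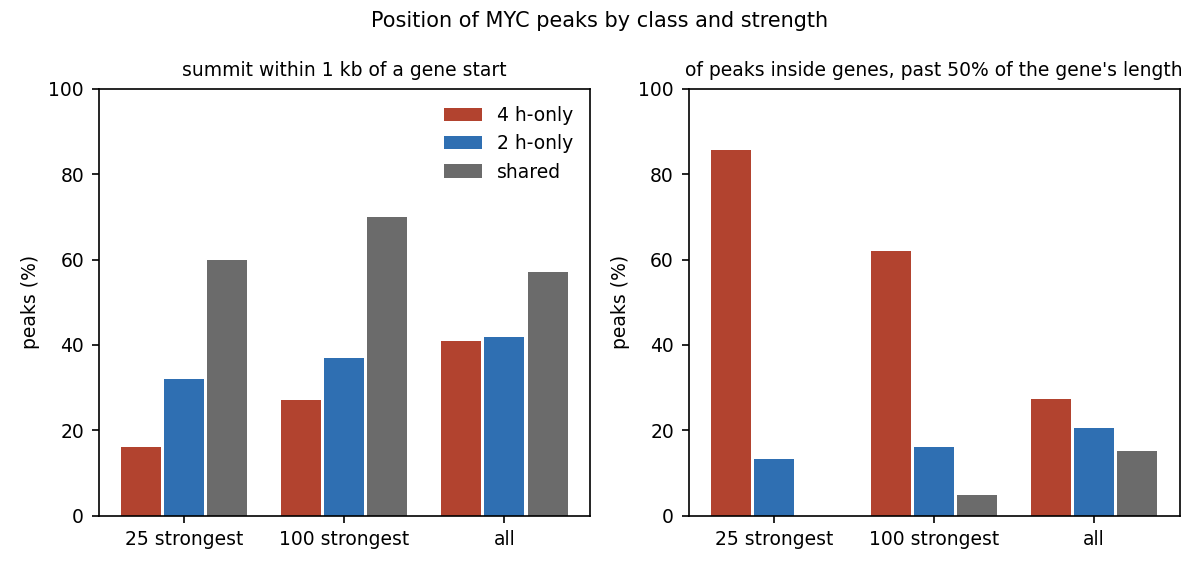
Percent of peaks (y axis) within 1 kb of a gene start (left) and, among peaks inside genes of known strand, past 50% of the gene's length (right), for the 25 strongest, the 100 strongest and all peaks of each class; shared peaks are those of the 4 h list, and no error is drawn. In the right panel the 4 h-only bar for the 25 strongest peaks stands at 85.7%, against 13.3% for 2 h-only and 0 for shared peaks.

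Up to 8 4 h-only peaks lay near a single gene. Within 20 kb of the gene span, 35 of 21883 protein-coding genes (0.16%) had 3 or more 4 h-only peaks, with 81 of the 1178 peaks between them, and 505 (2.31%) had 3 or more 2 h-only peaks. Ctsb and Psap had 8 each, Ctsd 6, Ctss (cathepsin S) 5, and Itm2b and C1qb (a chain of complement C1q) 4 each. Fdft1, Cdh23, Ifitm10 and Hormad1 are neighbours that hold the same 4 h-only peaks. At Psap all 8 were between 17.0 and 24.7 kb into a span of 24.97 kb, with 15 to 32 fragments. The 4 h peaks at -16.8, -15.1, -4.07 and 9.17 kb from the 5′ end of Psap were shared, with 13 to 18 fragments at 4 h and 16 to 18 at 2 h. At Itm2b the 4 h-only summits were 18.9 to 22.2 kb into a span of 23.1 kb, and the peak at the start was shared, with 12 fragments at 4 h and 12 at 2 h. At Lyz2 (lysozyme 2) there were 3 4 h-only peaks of 36, 24 and 18 fragments and no 2 h peak. Of the 25 strongest 4 h-only peaks, 19 were near a gene with 3 or more of them. Of the other ChIP lists, that of the factor IRF1 after 4 h of IFNg with IL4 overlapped 9 of these 25 peaks (36.0%), against 8.49% of all 4 h-only peaks. The lists of IRF1 in untreated cells and after IFNg alone overlapped 0 of the 25. These lists are smaller, with 244 and 4189 peaks, against 8226 for IFNg with IL4. They overlapped 1.19% and 2.89% of all 4 h-only peaks, so few overlaps among 25 peaks could be seen from either. What sets these overlaps was not tested.

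**Figure D3:**
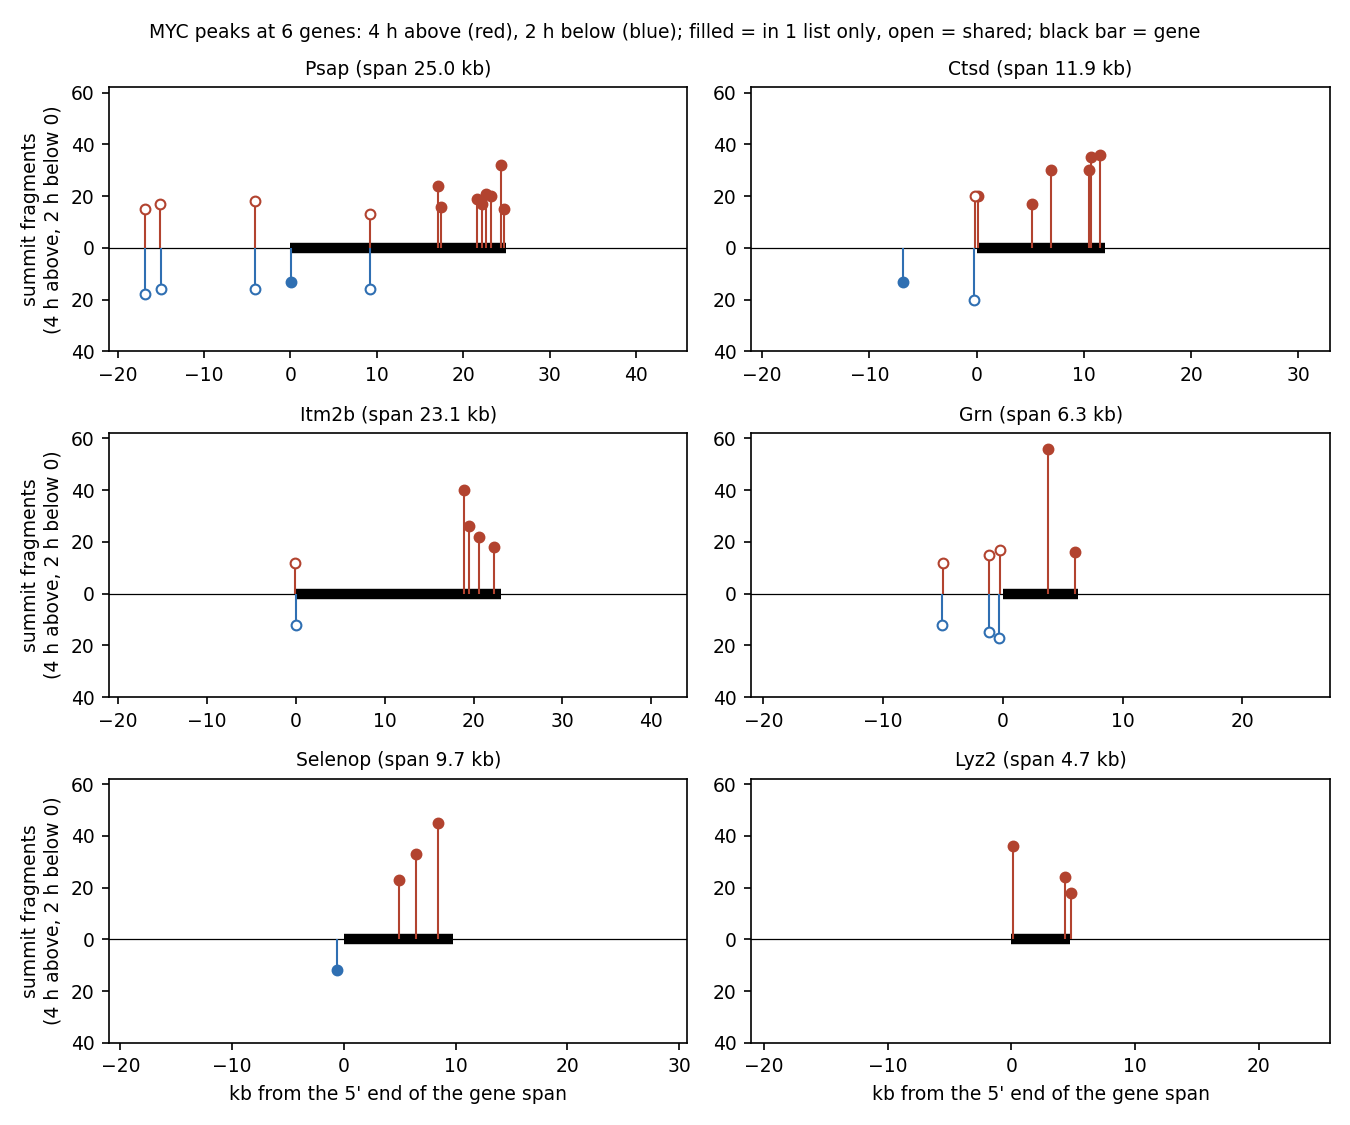
MYC peaks around 6 genes: the x axis is the distance in kb from the 5′ end of the gene span (black bar), and the y axis is the number of fragments at the summit, not scaled for depth, with 4 h peaks drawn upward and 2 h peaks downward. Filled points are peaks of 1 time only and open points shared peaks; at Psap, Ctsd, Itm2b, Grn and Selenop the filled 4 h points lie inside the gene, up to 56 fragments at Grn, and 2 h peaks in these panels lie near or before the start except at 9.20 kb in Psap.

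By the naming rule the 25 strongest 4 h-only peaks belonged to 15 genes and the 25 strongest 2 h-only peaks to 25. Over whole classes, 1178 4 h-only peaks were named by 1070 genes and 4878 2 h-only peaks by 3702. The strongest 2 h-only peak was 154.5 kb from the start of Skap2 (an adaptor of immune cell signalling), at chr6:51857903-51858291, with 33 fragments at 2 h, which comes to 50.5 at the depth of 4 h. The next were inside Panx1 (a channel protein, 24 fragments) and Atp8b4 (a phospholipid transport ATPase, 25), and at 72.6 kb from the start of Polr1a (the large subunit of RNA polymerase I, 26). Those of Zfp52, Pisd, Znfx1, Abcg1, Csgalnact2 and Zfp949 had 22 to 25 fragments. By number, Bcl2l1 (the survival protein BCL-X) led with 7 2 h-only peaks, against 0 4 h-only peaks. Cdc37, Socs3, Plec, Tsnaxip1, Cenpt, Nek6 and Cmss1 had 6 each, and Dnm2 and Plekho2 5 each. Socs3, a feedback inhibitor of cytokine signalling, had 3 4 h peaks, 2 of them shared, and 8 2 h peaks, 2 of them shared. Among the genes with most shared peaks were 3110082I17Rik (12), Prdx2, Junb, Arid1b and Ganab (9 each), Zc3h10, Set, Pkn3 and Midn (8 each). Prdx2 and Junb are neighbours, as are Set and Pkn3.

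By position, 41.0% of 4 h-only peaks (38.1 to 43.9; 471 of 1149) and 41.8% of 2 h-only peaks (40.4 to 43.2; 1992 of 4762) had the summit within 1 kb of a listed gene start, against 57.1% of shared peaks of the 4 h list (56.0 to 58.2; 4715 of 8259). Peaks of 1 time were less often at a start than shared peaks in all 10 strength classes of the 4 h list and in all 9 classes of the 2 h list that held 2 h-only peaks. Some of these classes say little: classes 1 and 2 of the 4 h list held 9 and 8 4 h-only peaks. In class 9 of that list the shares were 46.8% and 51.2%. Over 20 kb from any gene span lay 8.91% of 4 h-only, 8.49% of 2 h-only and 5.39% of shared peaks. Inside a gene span lay 64.7% of 4 h-only, 63.9% of 2 h-only and 63.4% of shared peaks. With a reciprocal overlap of 50% required, the shares at a start were 53.1%, 46.3% and 56.0%. Chromosome Y held no 4 h peak and 1 2 h peak, which was not shared. Of the other chromosomes X had the lowest share of shared peaks at either time, 76.9% of 156 4 h peaks (69.5 to 83.3) and 50.6% of 239 2 h peaks (44.1 to 57.1), while the autosomes ranged over 83.1 to 89.6% at 4 h and 58.3 to 67.0% at 2 h.

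The other MYC libraries separated shared peaks from the rest. MYC peaks of untreated cells (495 in all) overlapped 0 of 1178 4 h-only peaks, which allows a share of up to 0.313%, and 1 of 4878 2 h-only peaks, against 471 of 8467 shared peaks (5.56%). MYC peaks after 4 h of 100 ng/ml IFNg with 10 ng/ml IL4 overlapped 2.63% of 4 h-only, 2.38% of 2 h-only and 34.7% of shared peaks, and those after 2 h overlapped 1.70%, 1.85% and 31.6%. For the untreated list no comparison at like strength is given, so its contrast can also reflect the greater strength of shared peaks. The gap for IFNg with IL4 narrowed among peaks of like strength in the weaker classes, though unevenly. The 4 h library of IFNg with IL4 overlapped 3 of 64 4 h-only and 198 of 901 shared peaks in class 5 of the 4 h list. The counts were 7 of 221 and 72 of 743 in class 8, and 2 of 226 and 61 of 739 in class 9. In class 10, which holds the most 4 h-only peaks, they were 9 of 311 and 35 of 653. The list of STAT6 after 2 h of IL4 overlapped the classes more evenly, at 36.9% of 4 h-only (34.2 to 39.8), 38.6% of 2 h-only (37.2 to 39.9) and 44.4% of shared peaks (43.4 to 45.5). Among the 25 strongest, STAT6 overlapped 1 4 h-only, 13 2 h-only and 17 shared peaks. In none of the other 14 ChIP lists were 48.4% of 4 h-only, 48.1% of 2 h-only and 26.3% of shared peaks.

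**Figure D4:**
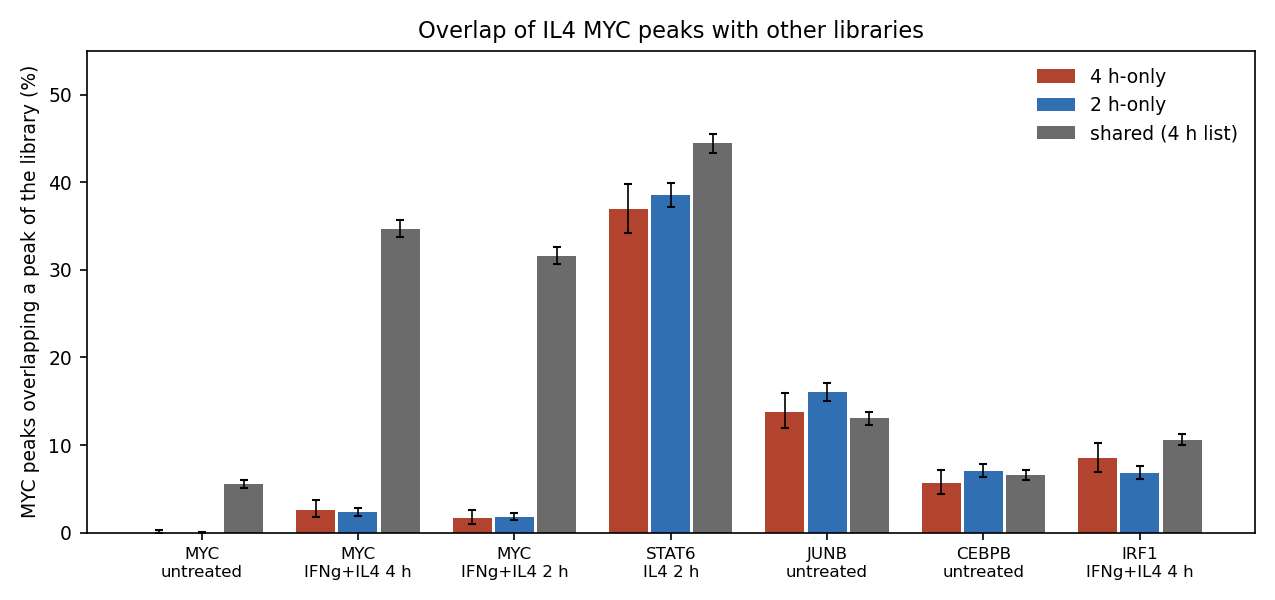
Percent of MYC peaks of each class (y axis) that overlap a peak of 7 other libraries by at least 1 bp (x axis), with exact 95% binomial intervals as bars. The MYC libraries of IFNg with IL4 overlap 34.7 and 31.6% of shared peaks and at most 2.63% of either other class, while STAT6 overlaps 36.9 to 44.4% of all 3 classes.

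Gene lists were read against all 21883 protein-coding genes, of which 44.8% were within 20 kb of a 4 h peak and 51.1% of a 2 h peak, 1.44% (316) near a 4 h peak alone and 7.79% (1704) near a 2 h peak alone, and 43.3% near both. Among the 5000 highest peaks of each list these counts of genes near 1 time alone became 963 for 4 h and 1017 for 2 h. A 4 h-only peak was near 8.29% of genes and a 2 h-only peak near 27.3%. No set was tested, and members in 1 cluster of genes can share peaks.

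Most members of the growth lists were near a peak at both times. All 30 ribosome biogenesis genes, all 24 cytosolic ribosomal proteins and all 22 translation initiation genes were near a peak of 4 h and of 2 h. Within 1 kb of the gene's own start the counts were 26, 16 and 18 at each time. Not every gene has a listed start, and no share of all genes is given for that window. Of the 4 h peaks at the ribosome biogenesis genes, 57 of 61 were shared, and of the 2 h peaks 54 of 66. Examples are Ncl, Gar1 (a protein of H/ACA snoRNPs, −log10 p 121 at 4 h and 159 at 2 h) and Ppan (120 and 122 in the same order), and, among ribosomal proteins, Rpl10a (163 at 4 h and 128 at 2 h). The −log10 p values rank peaks within their own list and are not compared between times. Members near a 4 h peak and near a 2 h peak numbered 20 and 22 of 24 mitochondrial ribosomal proteins, 21 and 22 of 24 glycolysis genes and 25 and 27 of 28 respiration genes. In these lists Mrpl11, Mrps12, Hk1 (a hexokinase), Ndufa1 and Ndufa4 were near a 2 h peak alone. Of 30 nucleotide, polyamine and one-carbon enzymes, 24 were near a 4 h peak and 29 near a 2 h peak. Srm (spermidine synthase), Odc1 (ornithine decarboxylase) and Cad (the start of pyrimidine synthesis) were near both, and Prps2, Sms, Umps, Prps1 and Rrm2 near a 2 h peak alone, with −log10 p of 6.54 to 12.8.

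In the MYC and MAX network 13 of 15 members were near a peak at 4 h and at 2 h, and each of these 13 had a shared peak. Max, the obligate partner of MYC, had 2 4 h peaks, 1 of them shared, and 1 2 h peak. The MAX-binding repressors Mnt and Mga had 5 and 2 4 h peaks, all shared, against 6 and 2 2 h peaks. Mxd1, Mxd3, Mxd4 and Mxi1, of the same repressor group, had 2, 2, 1 and 5 peaks at 4 h and 2, 2, 1 and 3 at 2 h. Mlxip, a MLX partner of the MondoA type, had 1 4 h peak and 4 2 h peaks, and Mlx and Mlxipl had 1 and 2 at 4 h and 1 and 1 at 2 h. Mycl had 1 peak at each time, Zbtb17 (MIZ1) 1 at 4 h and 3 at 2 h, and Fbxw7 (the ligase that targets MYC for decay) 2 at 4 h and 3 at 2 h. Neither Myc nor Mycn had a peak of either list within 20 kb.

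Of 28 cell cycle genes, 23 were near a 4 h peak and 25 near a 2 h peak. Ccnd2 (cyclin D2) was near a 4 h peak alone, with a −log10 p of 11.7. Mcm2 and Mcm3 (subunits of the replicative helicase) and Cdk6 were near a 2 h peak alone, with 17.9, 14.9 and 8.82. Of the 4 h peaks at these genes 48 of 51 were shared, and of the 2 h peaks 44 of 69.

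Of 30 IL4 response genes, 17 were near a 4 h peak and 19 near a 2 h peak. Tgm2 (transglutaminase 2) and Irf4 (a transcription factor of alternative activation) were near a 2 h peak alone, with −log10 p of 8.03 and 6.42. Batf3 had 7 peaks at each time, 4 of them shared, and Egr2 had 5 at each time, 3 of them shared. Kdm6b (a histone H3K27 demethylase) had 4 peaks at each time, all shared, and Arg1 (arginase 1) had 2 at 4 h, both shared, and 3 at 2 h. Flt1 had 2 shared and 2 4 h-only peaks. Retnla, Chil3, Ccl17, Ccl22 and Ccl24 were among the 11 with no peak of either list.

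Of 34 IFNg response genes, 17 were near a 4 h peak and 25 near a 2 h peak. The 8 near a 2 h peak alone were Rsad2, Irgm1, Gbp3, Gbp7, Ciita, Stat2, Irgm2 and Isg15, with −log10 p of 4.88 to 17.8, and Gbp3 and Gbp7 share a peak. That is 23.5% of the list, against 7.79% of all genes, but it depends on the window. Within 50 kb 29 members were near a 2 h peak and 25 of these near both, within 5 kb 17 and 12, and within 1 kb of the gene's own start 12 and 8. Over all 21883 genes, those near a 2 h peak alone numbered 1479 within 50 kb and 1772 within 5 kb. Within 1 kb of the own start they numbered 1221, where 17491 genes have a listed start. Irf1 and Cxcl9 were near both, with 3 and 1 peaks at 4 h, all shared, and 4 and 1 at 2 h.

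Of the genes named above for their 4 h-only peaks, the lysosome list holds Ctsb and Ctsd and the macrophage list Lyz2 and Fcgr3. Of 38 lysosome and autophagy genes, 33 were near a 4 h peak and 35 near a 2 h peak, with 10 (26.3%) near a 4 h-only peak, against 8.29% of all genes, and 21 (55.3%) near a 2 h-only peak, against 27.3%. Their 84 4 h peaks were 73.8% shared (63.1 to 82.8), and 14 of the 22 others were the peaks of Ctsb and Ctsd. Without these 2 genes 88.2% of 68 peaks were shared. Uvrag and Rragd, of autophagy and amino acid sensing, were near a 2 h peak alone. Of 29 macrophage identity genes, 22 were near a 4 h peak and 21 near a 2 h peak. In this list 8 (27.6%) were near a 4 h-only peak and 13 (44.8%) near a 2 h-only peak. In the other gene lists the share near a 4 h-only peak ran from 0 for genes of other organs to 20.8% for glycolysis. Lyz2 and Fcgr3 were near a 4 h peak alone, and Cebpb near a 2 h peak alone with a −log10 p of 8.34. Spi1 (PU.1) had 6 peaks at each time, 5 of them shared, Cd68 had 5 at 4 h, all shared, and 8 at 2 h, and Tyrobp 7 at each time, all shared.

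Peaks do not measure expression, so the labelled cell type was read only from the presence of MYC peaks. Of the 9 macrophage markers Spi1, Csf1r, Itgam, Cd68, Adgre1, Lyz2, Mertk, Fcgr1 and Cd14, 9 were near a 4 h peak and 8 near a 2 h peak, and 6 of the whole list of 29 were near neither (Maf, Tlr4, Ccr2, Cd163, Msr1 and Marco). Among all protein-coding genes 44.8% were near a 4 h peak and 51.1% near a 2 h peak. Within 1 kb of the gene's own start, 5 of the 29 had a 4 h peak and 7 a 2 h peak. The shares of all genes just given are for 20 kb, and none is given for this narrower window. The highest −log10 p near Cd68 at each time is also the highest near the translation initiation gene Eif4a1. Of 14 markers of T cells, B cells, erythroid cells, granulocytes and stroma 5 were near a 4 h peak and 5 near a 2 h peak. Over the whole list for other blood and stromal cells the counts were 9 and 10 of 25, among them Cd79a and Klf1, while Cd3e, Pax5 and Gata1 had none. The highest −log10 p near Cd79a, 96.6 at 4 h and 74.7 at 2 h, is also the highest near the ribosomal protein gene Rps19. Within 1 kb of the gene's own start, 0 members of this list had a 4 h peak and 1 had a 2 h peak, again without a share of all genes beside it. Of 25 genes of other organs 5 were near a peak at 4 h and 5 at 2 h.

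**Figure D5:**
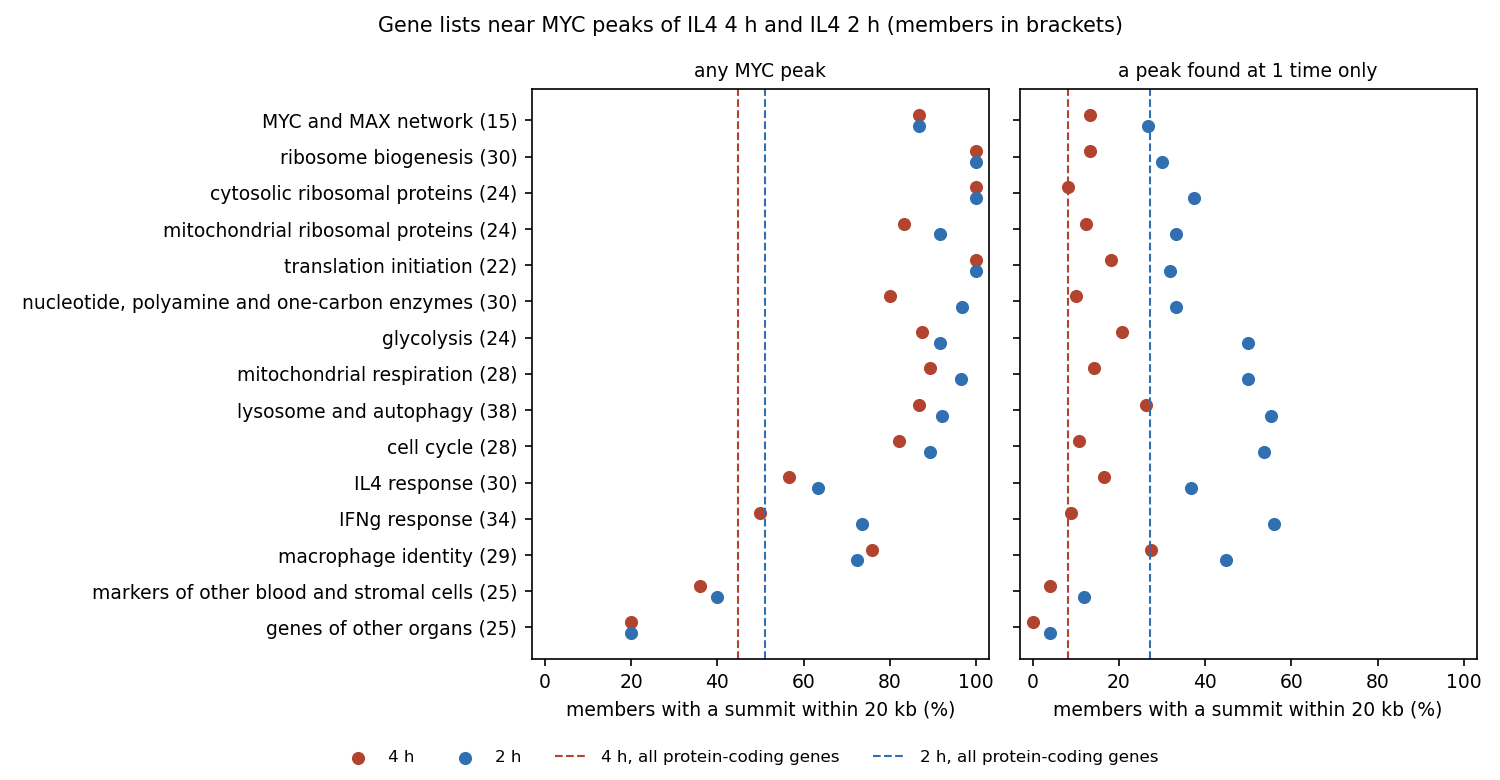
Percent of the members of 15 gene lists (list size in brackets) with a MYC summit within 20 kb of the gene span (x axis), for any peak (left) and for peaks of 1 time only (right), 4 h in red and 2 h in blue, with dashed lines for all protein-coding genes. Ribosome biogenesis, ribosomal proteins and translation initiation stand at 100% at both times in the left panel, and IFNg response genes stand at 50.0% for 4 h and 73.5% for 2 h.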

How the data were processed

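Each MYC library was 1 sample per the labels, so nothing was pooled and no test between the times was possible. The submitters' processing notes name Bowtie2 2.2.6 for alignment and MACS2 2.1.0.20150731 for peak calling on mm10/GRCm38; what settings they ran with is not given in the sources used here. The deposited lists give per peak the authors' fold enrichment (a ratio), score, −log10 p and −log10 q, and the summit offset in bp (another deposited number). The lowest −log10 q was 2.02 at 4 h and 2.03 at 2 h. Whole summit fragments and background were recovered from the deposited fold and −log10 p (100% whole, within 0.001 on −log10 p), and relative depth from the steps of the background. Input removal took 7 peaks of 4 h and 23 of 2 h.

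Gene spans were those of the 21883 protein-coding genes of RefSeq GRCm38.p6. Starts and strands came from the promoter table, which lists 17491 of them (79.9%) and none on chromosome 18, so 9408 of the 4 h and 12890 of the 2 h peaks enter shares by start. A gene was near a peak when a summit lay within 20 kb of its span. Peaks were named by the nearest listed start or, for genes without one, the nearest span end, and this substitute is a departure from the planned nearest start. Named were the 10 strongest peaks per class (shared ones by the lower of both ranks), the 10 genes with most peaks per class, and up to 6 members per list and category by −log10 p, with all of the MYC and MAX network. Where others are named they were chosen after their values were seen, as were the groupings by the 25 and 100 strongest peaks and the motif GTCACGTG. The members and all 15 gene lists were chosen with earlier results of these data known. All 406 list entries matched. Some genes that the naming rule picks are not reported here. Alternatives were stricter peak and overlap rules, equal list lengths, kept input peaks, thinning of the 4 h list to the 2 h depth and other windows. Scripts used Python 3.11.15, NumPy 2.4.6, pandas 2.3.3 and SciPy 1.17.1 and were tested on simulated data.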

Additional observations from a re-analysis of the deposited data

How the results depend on the processing

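No paired analysis was possible because each time was 1 library. The shares of shared peaks given first below are those of 4 h and then 2 h, and the shares at a start those of 4 h-only, 2 h-only and shared peaks. With both lists limited to −log10 q of 5 or more they were 86.9% and 61.9%, with 43.9% of 2 h-only peaks at a start; with this limit in the counted list alone, 91.2% and 69.6%, and 203 genes were near a 4 h peak alone. A reciprocal overlap of 50% gave 70.5% and 51.4% shared, and 53.1%, 46.3% and 56.0% at a start. The 5000 highest peaks gave 75.9% and 74.6% shared, 52.0%, 49.6% and 60.9% at a start, and 963 and 1017 genes near 4 h alone and 2 h alone. Thinning the 4 h list to the 2 h depth left 9211 peaks, with 88.9% and 61.2% shared, and kept all 25 of the strongest 4 h-only peaks. A start window of 250 bp gave 26.9%, 26.3% and 40.9%, and one of 2.5 kb 46.3%, 47.6% and 61.4%. Leaving out the 81 4 h-only peaks near the 35 genes with 3 or more of them, an alternative chosen after seeing the data, gave 88.5% of 4 h peaks shared and 42.7% of 4 h-only peaks at a start. Shared peaks were the class most often at a start under each of these settings. With a summit required within 1 kb of the gene's own start, 277 genes were near a 4 h peak alone and 1221 near a 2 h peak alone. The share of all genes near any peak is not given for this window, so the member counts have no background beside them. Members near a 4 h and near a 2 h peak were then 7 and 8 of 30 for the IL4 response, 8 and 12 of 34 for the IFNg response, 5 and 7 of 29 for macrophage identity and 13 and 16 of 28 for respiration. Of all values recomputed for lists, motifs and library overlaps, these included, 50 moved and 116 did not. The main results were less stable. Of the recomputed shares of shared peaks, shares at a start and counts of genes near 1 time alone, 27 moved and 27 did not. Kept input peaks changed no value beyond its interval. With 1 library per time, nothing here separates time from library; the cause of each shift was not tested.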

Other observations

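The histone genes of chromosome 13, H2bc9, H3c7 and H4c6, had 5 2 h-only peaks within 20 kb and no 4 h peak; they are neighbours that hold the same peaks and were chosen after their values were seen. Gpnmb, a glycoprotein of macrophages, had 4 4 h-only peaks, with a −log10 p of at most 12.2, and no shared 4 h peak, and 1 2 h-only peak. The motif TGACTCA (an AP-1 site) was found in 4.35% of 4 h-only, 2.92% of 2 h-only and 2.37% of shared promoter windows, against 4.66% of all windows. The motif CCAAT was found in 44.7% of 4 h-only windows (38.4 to 51.0), 41.8% of 2 h-only windows (38.9 to 44.9) and 36.3% of shared windows (34.6 to 38.1), against 38.2% of all.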
